A study of Lycium barbarum and Lycium ruthenicum with 30 samples.

Results

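Plant defence genes, 3 in number and each represented by 1 unigene, were followed through fruit ripening in *Lycium ruthenicum* (LR, black fruit) and *Lycium barbarum* (LB, red fruit). They are chitinase (TRINITY_DN77127_c1_g3), EIX receptor 1/2 (TRINITY_DN95128_c2_g1) and disease resistance protein RPM1 (TRINITY_DN73733_c4_g1), 3 of the 326276 unigenes of the deposited table, and they were taken from the study's account of immunity genes that were higher in LR than in LB. A unigene is a cluster of transcripts assembled without a genome that stands for a gene. In its name, which is given without the prefix from here on, the DN number and the c number mark a component, a group of contigs that the assembler kept together because they share sequence, and the g number marks a unigene within it. The 9 other unigenes in the components of these genes were set beside them, to see whether LB had a copy of its own under another g number.

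The samples were fruits of wild-type plants of both species, taken at 5 stages: young (S1), green (S2), colouring (S3), immature (S4) and mature (S5). The LR shrubs grew wild on dry, saline ground, whereas the LB shrubs were cultured, watered plants of a distant nursery. The study states that LB has also been selected by growers over generations. The effects of species, site, watering, cultivation and such selection therefore cannot be told apart where LR is set against LB. Each species and stage had 3 libraries, from fruit of 3 trees, so 15 libraries of LR and 15 of LB were available. The study collected from fewer shrubs of each species than that, so some shrubs recurred across stages. Which ones did is not stated, and the tests took all libraries as separate. A name such as LR3-3 stands for the third LR library of S3.

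The column codes B and R were read as LR and LB, as the study's supplement gives them, although in the sample titles the species are the other way round. The anthocyanin genes were used as a check of that reading. At S5, chalcone synthase (CHS, DN73389_c1_g2) lay between 2462.1 and 5268.62 FPKM in the columns read as LR, against 29.55 to 47.24 in those read as LB, and leucoanthocyanidin dioxygenase (LDOX, DN68066_c0_g2) between 2357.81 and 3730.38, against 1 to 1.46. The columns read as LR were thus those with the higher levels of both pigment genes. FPKM are fragments counted per length of transcript and per library total, so they allow levels to be set side by side between genes. In whole fruit, fewer cells that express a gene and less RNA per cell cannot be told apart.

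Chitinases cleave chitin, the polymer of fungal cell walls, and many are counted among the pathogenesis-related proteins of plants, although some are also made in healthy fruit. EIX receptors are known from tomato, where they are receptor-like proteins at the cell surface that bind a fungal xylanase, the ethylene-inducing xylanase for which they are named. RPM1 is known from *Arabidopsis thaliana* as an intracellular receptor of the nucleotide-binding, leucine-rich-repeat class, which responds when bacterial effectors modify the plant protein RIN4. The genes thus stand for an enzyme that acts on the microbe, a surface receptor and an intracellular receptor.

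All of these genes were above 0 in every LR library and were listed at 0 in nearly every LB library. An FPKM of 1 was reached in 12 of the 15 LR libraries for chitinase, in 8 for EIX receptor and in all 15 for RPM1. Chitinase had 0 FPKM in all 15 LB libraries. EIX receptor was listed at 0 in 14 LB libraries and at 0.13 FPKM in LB3-3. RPM1 was listed at 0 in 14 LB libraries and at 0.02 FPKM in LB2-2. No LB value of any of these unigenes reached the lowest LR value of the same unigene at any stage, and no fold change or fitted difference is given for a single stage where every library of a species was listed at 0. As the study picked these genes for their difference between species in these same libraries, the difference is described here without a test.

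**Figure D1:**
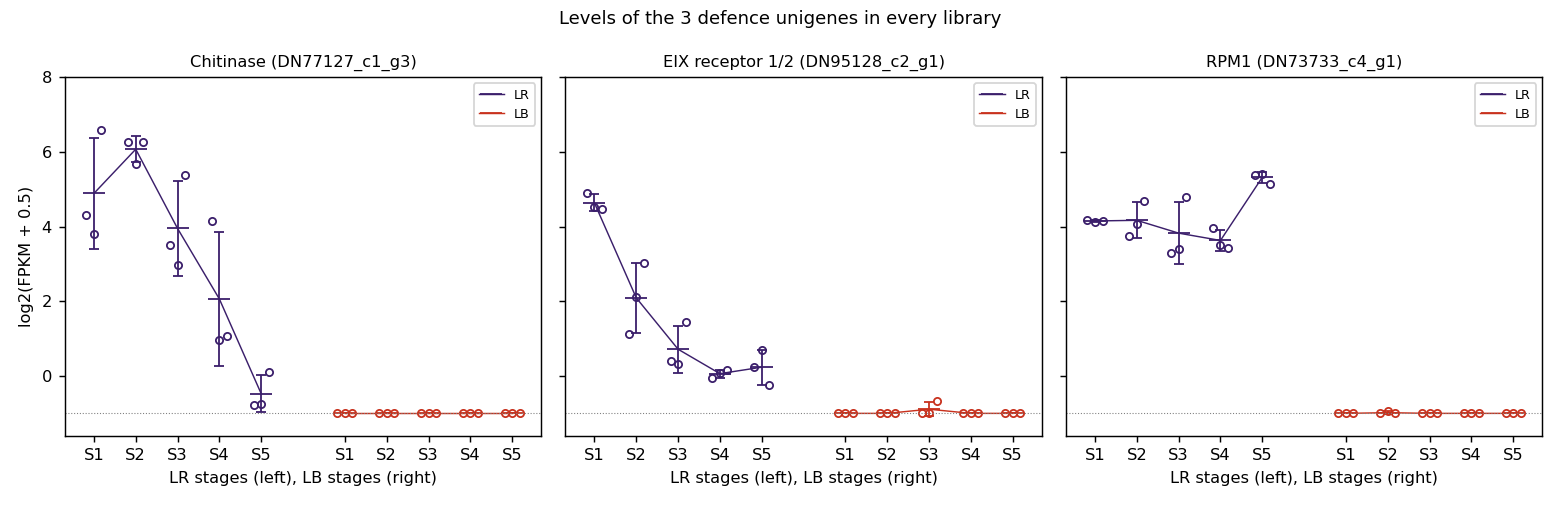
Levels of chitinase, EIX receptor and RPM1 on a log2(FPKM + 0.5) scale (y axis) in every library, with the stages of LR on the left and those of LB on the right of each panel. Circles are libraries, horizontal marks are means of the 3 libraries of a stage with SD as bars, and the dotted line is an FPKM of 0. All LR circles lie above the LB circles, chitinase and EIX receptor lie low at S5, and RPM1 has its highest LR values at S5.

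In LR, chitinase was high in young and green fruit and close to 0 in mature fruit. At S1 the LR libraries had 19.15, 13.32 and 94.92 FPKM (mean 42.5 ± 45.5, SD, n = 3), and at S2 they had 76.68, 50.66 and 76.37 (67.9 ± 14.9). The S2 values lay within the range of S1, in which LR1-3 stood 7.13-fold above LR1-2. At S3 the values were 10.79, 7.28 and 41.44 FPKM (19.8 ± 18.8), at S4 17.15, 1.45 and 1.61 (6.74 ± 9.02), and at S5 0.08, 0.10 and 0.57 (0.250 ± 0.277). From the highest stage mean to the lowest the order was S2, S1, S3, S4, S5, and only the last pair of neighbours in that order, S4 and S5, did not overlap.

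The stage differences of LR were estimated with limma on log2(FPKM + 0.5) over all 30 libraries, and a difference was called at a Benjamini-Hochberg adjusted p under 0.01 and at least 2-fold. The fit pooled the spread of both species, and LB, at or next to 0, added next to none for these genes. SE and p here are thus not those of LR alone. Because the study had already named chitinase and EIX receptor as genes of the early stages and RPM1 as a gene of all stages, these tests are not independent of the choice of genes. Chitinase was lower at S5 than at S1, with S5 minus S1 at -5.36 on the log2 scale (SE 0.68, limma adjusted p = 3.7e-06), and 8.37% of all 111217 unigenes tested were called in that comparison. None of its steps between adjacent stages was called. The log2 difference was 1.18 for S2 minus S1 (adjusted p = 0.66), -2.12 for S3 minus S2 (0.066), -1.89 for S4 minus S3 (0.51) and -2.54 for S5 minus S4 (0.02). Without LR3-3 and LR4-1, the highest libraries of S3 and S4, the step of S3 minus S2 was -2.84 (limma adjusted p = 0.0012) and was called.

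EIX receptor was a gene of the youngest fruit. Its LR libraries had 29.23, 22.60 and 21.75 FPKM at S1 (24.5 ± 4.10) and 1.7, 3.82 and 7.65 at S2 (4.39 ± 3.02), and these groups did not overlap. From there the values stayed low, with 0.81, 0.75 and 2.21 FPKM at S3 (1.26 ± 0.83), 0.47, 0.55 and 0.62 at S4 (0.547 ± 0.075), and 0.68, 1.13 and 0.35 at S5 (0.720 ± 0.392). In the order of stage means, S1, S2, S3, S5, S4, only S1 and S2 were neighbours that did not overlap. S2 minus S1 was -2.54 on the log2 scale (SE 0.35, limma adjusted p = 0.00021) and was called, as were 0.466% of all unigenes. The step of S3 minus S2 was -1.38 (limma adjusted p = 0.019) and was not called, S4 minus S3 was -0.65 (0.94), S5 minus S4 was 0.17 (0.96), and S5 minus S1 was -4.40 (SE 0.35, 3.7e-09) and called. With only the 15 LR libraries in the fit, the difference of S2 minus S1 kept its size at a limma adjusted p of 0.061 and was no longer called. Without LR3-3 and LR4-1, S3 minus S2 of EIX receptor was -1.74 (limma adjusted p = 0.0039) and called.

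RPM1 ran the other way at the end of ripening. Its LR libraries had 17.71, 16.82 and 17.24 FPKM at S1 (17.3 ± 0.45), the tightest group of the stage course, and 12.92, 16.21 and 25.37 at S2 (18.2 ± 6.45). At S3 they had 9.31, 10.01 and 27.07 FPKM (15.5 ± 10.1), and at S4 15.02, 10.83 and 10.25 (12.03 ± 2.60). At S5 they had 41.20, 42.33 and 35.07 FPKM (39.5 ± 3.91), above every library of the other stages. The remaining stages, in the order S2, S1, S3, S4, overlapped each with the next.

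RPM1 was higher at S5 than at S4 by 1.69 on the log2 scale (SE 0.29, limma adjusted p = 0.0016), where 2.55% of all unigenes were called, and higher at S5 than at S1 by 1.17 (SE 0.29, limma adjusted p = 0.0074). With only the 15 LR libraries in the fit neither difference was called (limma adjusted p = 0.053 and 0.079). The other steps were 0.02 for S2 minus S1, -0.34 for S3 minus S2 (2.01% of all unigenes called) and -0.20 for S4 minus S3 (0.0548% called), and none of them was called. The rise at S5 was sensitive to the scale of the libraries. Median-of-ratios size factors of LR were 0.408 to 0.919 at S3 and S4 and 0.772 to 1.04 at the other stages, and after scaling by them the mean RPM1 level of LR was 18.1, 19.4, 22.1, 21.6 and 42.2 from S1 to S5. On that scale S5 minus S4 was 0.95, under the 2-fold limit, whereas the scaled S5 values, 37.9 to 47.2, still lay above all others. The call of S5 minus S1 was lost when any 1 of the 6 LR libraries of S1 and S5 was left out, with values of 1.12 to 1.25 over all 30 such fits, and that of S5 minus S4 was lost without LR4-3 or LR5-2 (1.59 to 1.85).

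**Figure D2:**
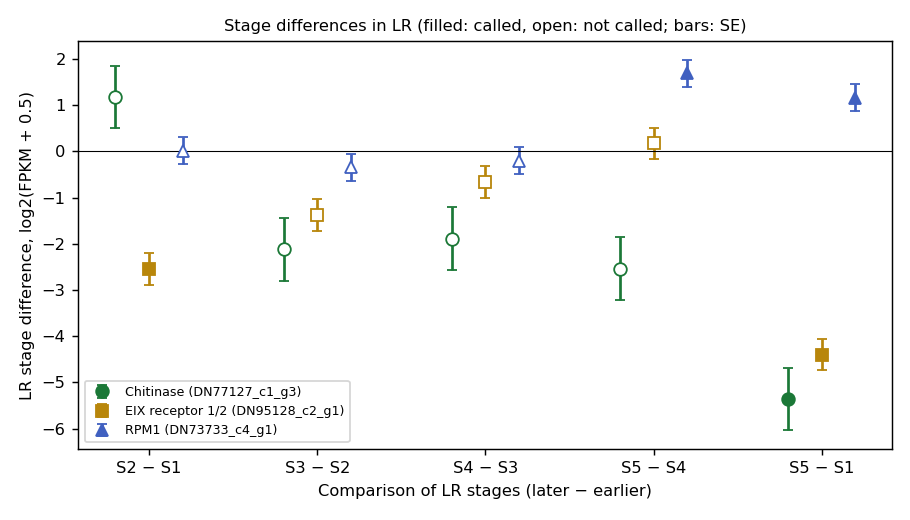
Log2 differences between LR stages (y axis, log2(FPKM + 0.5), later minus earlier) of chitinase, EIX receptor and RPM1 for the 4 adjacent steps and for S5 minus S1 (x axis). Bars are SE from limma, filled symbols were called and open symbols were not. S5 minus S1 was -5.36 for chitinase, -4.40 for EIX receptor and 1.17 for RPM1, all called.

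A single contrast for stage dependence of the species difference compared LR minus LB at S3 to S5 with LR minus LB at S1 and S2, a contrast in which 8.47% of all unigenes were called. It was -3.63 for chitinase (SE 0.62), -3.06 for EIX receptor (SE 0.32) and 0.11 for RPM1 (SE 0.27). The study had picked chitinase and EIX receptor as early LR genes on these same libraries, and they passed the filter on low values through LR alone, so these values describe that choice and no p is given. With LB at or next to 0 throughout, they are in effect the change within LR. Even at S5 all LR libraries of chitinase (0.08 to 0.57 FPKM) and of EIX receptor (0.35 to 1.13 FPKM) stood above the LB libraries, which were listed at 0.

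The libraries of 1 stage did not rank alike for these genes. Within S1 chitinase was highest in LR1-3, while EIX receptor and RPM1 were highest in LR1-1, and only at S3 did all of them peak in the same library, LR3-3. LR3-3 had a size factor of 0.919, against 0.486 and 0.565 in LR3-1 and LR3-2, and the part of that scale in its higher values was not tested beyond the scaled fit. Across the 15 LR libraries, which share their stages, the Pearson r of log2(FPKM + 0.5) was 0.582 between chitinase and EIX receptor (Spearman rho 0.643), -0.337 between chitinase and RPM1 (-0.161) and 0.0316 between EIX receptor and RPM1 (0.182). The early courses of chitinase and EIX receptor were thus only partly alike, since chitinase was still at its height at S2 when EIX receptor was already low.

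The chitinase component held 2 more unigenes, neither with a gene name used here, and 1 of them was the only other unigene in any of these components that reached an FPKM of 1 in 3 or more LB libraries. DN77127_c1_g2 was higher than chitinase in every LR library, with 419.91, 266.32 and 398.67 FPKM at S1 in LR, against 43.67, 34.99 and 21.01 in LB. At S2 it had 911.42, 488.20 and 389.86 FPKM in LR, against 9.67, 13.97 and 5.76 in LB, and at S3 687.92, 373.58 and 1471.28 in LR, against 1.86, 0.80 and 0.54 in LB. The species did not overlap at any of these stages, and LB was low from S3 on.

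At S4 DN77127_c1_g2 had 832.97, 81.25 and 109.81 FPKM in LR, against 3.45, 0.31 and 0.13 in LB. At S5 it had 9.31, 0.45 and 64.32 FPKM in LR, against 0.45, 0.23 and 0.69 in LB. At S4 the groups did not overlap, whereas at S5 LR5-2 lay within the LB range. LR minus LB was 3.46 at S1 on the log2 scale (SE 1.01, limma adjusted p = 0.0074; 30.9% of all unigenes called), 5.84 at S2 (4.8e-05; 30.7%), 8.94 at S3 (1.1e-07; 32% called), 7.28 at S4 (2.2e-06; 33.2%) and 3.17 at S5 (0.013; 33.1%). The first 4 of these were called. That at S4 was not called with only the 6 libraries of the stage in the fit (7.28, limma adjusted p = 0.014), and the value at S5 was called after scaling (3.40, 0.0065). The call at S1 was lost when any 1 library of S1 was left out, with values of 3.17 to 3.68 over 30 fits, and the value at S5 became a call without LR4-1 or LR5-2, in a range of 1.702 to 4.75.

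DN77127_c1_g2 fell with ripening in both species. S5 minus S1 was -5.39 on the log2 scale in LR (limma adjusted p = 0.00046) and -5.11 in LB (0.00046; 14.5% of all unigenes called). In LB the fall was early, with means of 33.2 ± 11.4 FPKM at S1, 9.80 ± 4.11 at S2 and 1.07 ± 0.70 at S3, although neither the step of S2 minus S1 (-1.73, limma adjusted p = 0.34; 6.31% called) nor that of S3 minus S2 (-2.72, 0.09; 5.28% called) was called. In LR the mean was highest at S3 (844.3 ± 565.3 FPKM) and fell to 24.7 ± 34.6 at S5, and S5 minus S4 was -4.53 (limma adjusted p = 0.0077). That last call was lost with only the 15 LR libraries in the fit (0.1), as was that of S5 minus S1 in LR (0.03), and also in 12 of the 30 fits that left out 1 library, with values of -6.00 to -2.96. The late minus early change of LR minus LB was 1.81 for this unigene (limma adjusted p = 0.20) and was not called.

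Within LR, chitinase and DN77127_c1_g2 moved together more closely than the named genes did with each other. Their Pearson r over the 15 LR libraries was 0.825 (Spearman rho 0.775), and in 4 of 5 stages the same library had the highest value of both. The level of DN77127_c1_g2 was 4.2 to 116 times that of chitinase in the same library. The ratio was 4.2 to 21.9 at S1 and S2 and 35.5 to 68.2 at S3 and S4, and at S5 it was 116, 4.5 and 113. As unigenes of a component share sequence, reads of one can be counted in another, so their levels are not fully separate measurements.

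The third unigene of the component, DN77127_c1_g1, was listed at 0 in all LB libraries. In LR it had 0, 3.48 and 1.64 FPKM at S1, 0.90, 0 and 7.86 at S2, 1.39, 2.41 and 8.02 at S3, 2.51, 2.77 and 13.03 at S4, and 0.67, 0.57 and 6.11 at S5. The third library was the highest in LR at every stage but S1. It passed the filter on low values through LR alone, which fixed the direction of any difference, so none is given.

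**Figure D3:**
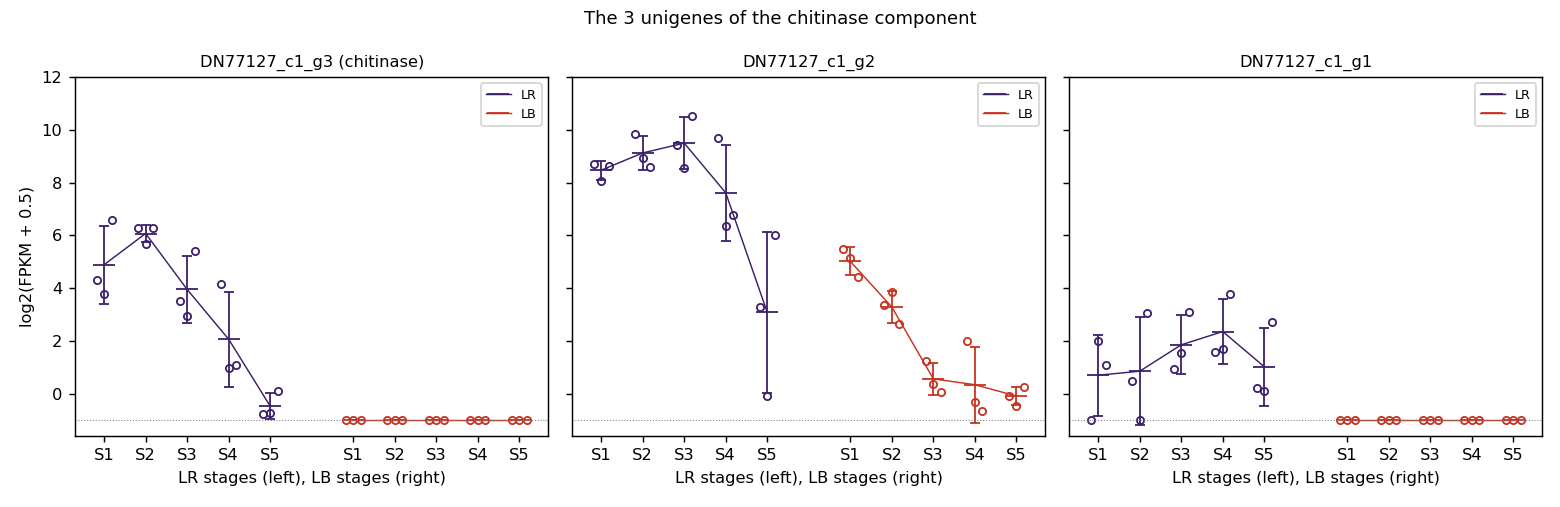
The 3 unigenes of the chitinase component on a log2(FPKM + 0.5) scale (y axis) by stage, with LR on the left and LB on the right of each panel. Circles are libraries, horizontal marks are means of 3 libraries with SD as bars, and the dotted line is an FPKM of 0. Only DN77127_c1_g2 has LB values well above 0, at 21.01 to 43.67 FPKM at S1 and at most 0.69 at S5.

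The EIX receptor component had no unigene above 0.13 FPKM in any LB library. DN95128_c2_g2 was above 0 only in LR3-3 (3.83 FPKM), LR4-2 (11.14) and LR5-3 (7.84). DN95128_c2_g3 was above 0 only in LR1-2, at 4.97 FPKM. DN95128_c2_g3 was thus a signal of 1 LR library and DN95128_c2_g2 of 3, each of another stage, with every LB library at 0. The part of reads shared with EIX receptor itself in these values was not tested.

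The RPM1 component had 5 more unigenes, and none passed the filter on low values, which asked for 3 libraries at an FPKM of 1 or above. DN73733_c4_g2 was present in every LR library, at 5.06 FPKM in LR1-1 and at 0.02 to 1.00 in the others, against 0 to 0.17 in LB. DN73733_c4_g5 reached at most 1.40 FPKM in LR and was listed at 0 in LB. DN73733_c4_g3 was above 0 only in LB3-1 (12.09 FPKM) and DN73733_c4_g4 only in LB1-1 (3.09 FPKM), and DN73733_c4_g6 had 0.22 FPKM in LR3-3 and 0.33 in LB2-2. LB thus had RPM1-component signal above 1 FPKM in single libraries only.

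Counted over these components, 1 of the 9 other unigenes, DN77127_c1_g2, reached an FPKM of 1 in 3 or more LB libraries, and 3 of 9 did so in LR. Widening the search to any c number of the same DN numbers added 8 unigenes and brought the counts to 3 of 17 in LB and 4 of 17 in LR. DN77127_c0_g1 was expressed in both species, at 3.81 to 13.68 FPKM in LR and 2.34 to 10.55 FPKM in LB, and LR minus LB was called only at S3 (1.32, limma adjusted p = 0.0076). Unlike chitinase it was not called between S5 and S1 in either species (-0.25 in LR, limma adjusted p = 0.90, and -0.28 in LB, 0.75).

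DN73733_c1_g1, of the same DN number as RPM1, was above 0 in LB alone. It was listed at 0 in all LR libraries, whereas in LB it had 8.94 to 27.48 FPKM in 11 libraries and 0 in LB2-1, LB3-1, LB3-3 and LB5-2. It passed the filter on low values through LB alone, which fixed the direction of any difference, so none is given. An alternation of 0 with values above 8 FPKM at 1 stage is a wide spread for 3 libraries, and its source was not tested. DN95128_c1_g1 was likewise above 0 in LB alone, at no more than 0.97 FPKM, and was highest at S1 (0.73, 0.86 and 0.97). Whether these LB unigenes encode a copy of RPM1 or of EIX receptor was not tested, since neither their sequence nor their annotation was used here.

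**Figure D4:**
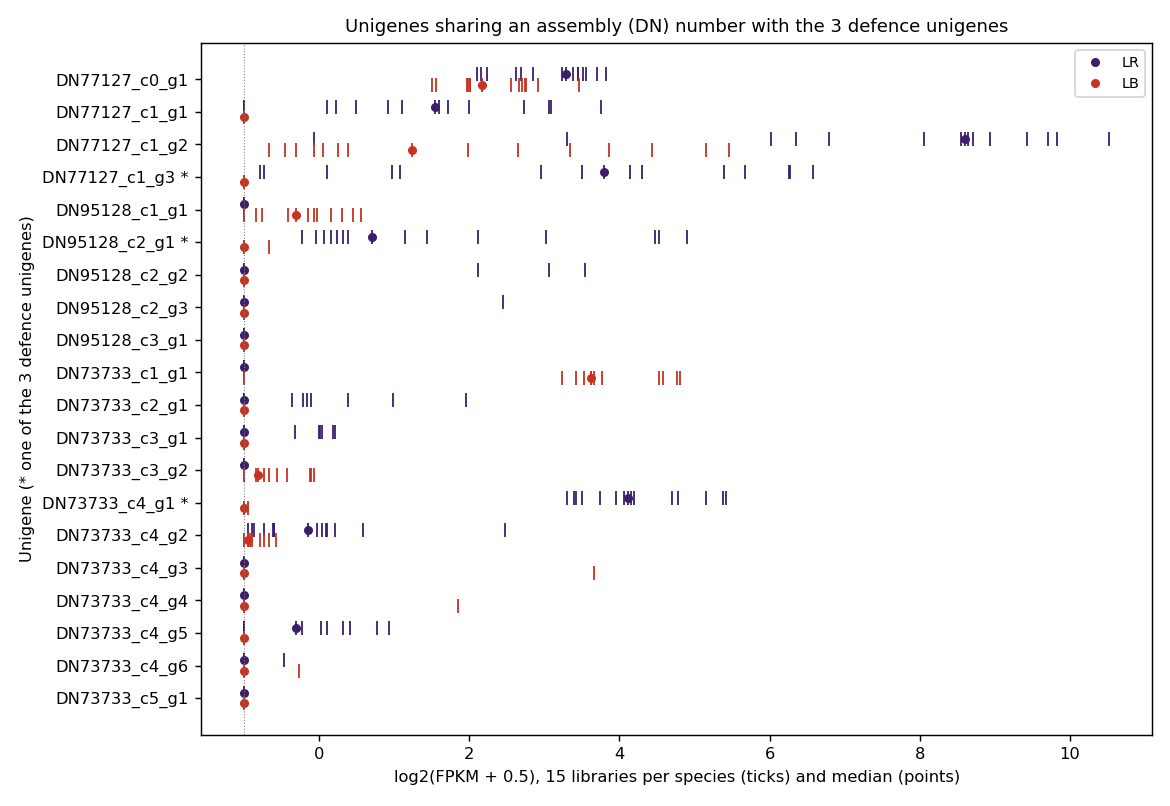
All unigenes that share a DN number with chitinase, EIX receptor or RPM1, 20 in all (rows, with an asterisk for the named genes), on a log2(FPKM + 0.5) scale (x axis). Ticks are the 15 libraries of a species, points are medians, and LR is drawn above LB in each row. DN77127_c0_g1 and DN77127_c1_g2 are the unigenes with levels above 1 FPKM in many libraries of both species, and DN73733_c1_g1 is above 1 FPKM in LB only.

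The pattern of the named genes, above 0 in LR and at 0 in LB, was not rare in the table. Of the 51586 unigenes above 0 in all 15 LR libraries, 3510 (6.8%) were listed at 0 in all 15 LB libraries, as chitinase was, and 4296 (8.33%) were above 0 in at most 1 LB library, as all of the named genes were. In the other direction 3201 unigenes were above 0 in all LB libraries and at 0 in all LR libraries. The 3510 unigenes fell into 3200 components, and 1809 of these (56.5%) held another unigene that reached an FPKM of 1 in 3 or more LB libraries. Of the 2504 components with more than 1 unigene the share was 72.2%. The chitinase component was among the 1809. EIX receptor and RPM1, with 1 LB library above 0 each, do not belong to the 3510, and no unigene of their components reached an FPKM of 1 in 3 LB libraries.

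Unigenes with the courses most like those of the named genes over the 15 LR libraries were, unlike them, expressed in LB too. For chitinase they were DN74203_c3_g1 and DN72995_c10_g1 (Pearson r 0.973 for both). DN74203_c3_g1 averaged 19.7, 28.8, 14.3, 6.39 and 1.20 FPKM from S1 to S5 in LR, against 1.83, 2.33, 1.00, 1.00 and 0.13 in LB. DN72995_c10_g1 averaged 207.8, 199.7, 77.3, 20.4 and 2.42 FPKM in LR, against 1451, 161.3, 5.72, 14.2 and 8.23 in LB, and so was higher in LB at S1 and S5. For EIX receptor they were DN90254_c0_g1 (r 0.988) and DN76813_c5_g1 (r 0.982), and DN76813_c5_g1 averaged 33.8 FPKM at S1 and 0.90 at S5 in LR, against 57.7 and 2.05 in LB.

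For RPM1 the most alike were DN100742_c2_g1 (r 0.984) and DN91525_c2_g1 (r 0.983). DN100742_c2_g1 averaged 30.3 ± 1.9 FPKM at S5 in LR, against 7.33 ± 1.04 in LB, while at S1 it averaged 12.7 ± 0.4 in LR and 13.1 ± 0.8 in LB. DN100742_c2_g1 was picked for its likeness to RPM1 in LR, so its high LR level at S5 follows from that choice. Its LB level was not raised at that stage. DN91525_c2_g1 averaged 27.3 ± 1.1 FPKM at S5 in LR, against 34.5 ± 9.2 in LB, and its mean was higher in LB at every stage. With Spearman rho other unigenes came first for each named gene (rho 0.964 to 0.986), so these names depend on the measure.

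Of the plant-pathogen interaction genes that the study listed as changing with stage in LR, 18 of 79 could be read, EIX receptor among them. Of these 18, 2 were also on the study's list for fatty acid elongation. The counts cover only the part of the list that was read. Of the 17 others, 16 were tested between species. At S1, 5 of these were called higher in LR than in LB and 1 lower, or 37.5% of them, against 30.9% of all unigenes (10.3% higher and 20.6% lower). Counted among the 5 is DN69092_c2_g1, which passed the filter on low values through LR alone, so its direction was fixed. The counts were 4 higher and 2 lower at S2, at S3 and at S4, and 3 higher and 1 lower at S5, which is 37.5% at S2 to S4 and 25% at S5, against 30.7%, 32%, 33.2% and 33.1% of all unigenes. Of all unigenes, 11.2%, 10.5%, 8.72% and 12.2% were called higher from S2 to S5, and 19.6%, 21.5%, 24.5% and 21% lower. The median of LR minus LB over the list was 1.10, 0.96, 0.86, 1.06 and 0.21 from S1 to S5 on the log2 scale, against -0.42, -0.33, -0.25, -0.49 and -0.26 over all unigenes tested. With both directions together, the shares called were near those of all unigenes. By direction they were not alike. In the list more were called higher than lower in LR at every stage, whereas of all unigenes more were called lower. After median-of-ratios scaling the median over all unigenes was -0.00738 at S1 and 0 at S2 to S5. The negative medians over all unigenes thus depend on the scale of the libraries, and counts by direction are not given on the scaled values. The list is small and was chosen for change with stage in LR, and the difference in direction was not tested. With scaled libraries 10 of the 16 were called at S3 and 11 at S4, against 31% and 30.1% of all unigenes, and with only the 6 libraries of a stage 2, 2 and 3 were called at S2, S3 and S4, against 19.6%, 18.4% and 17.2%.

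The list held unigenes that, unlike the named genes, were expressed in LB. DN83221_c5_g1, DN84259_c1_g1 and DN89104_c1_g3 had their highest LR mean at S5, as RPM1 did. DN83221_c5_g1 was lower in LR at every stage, and at S4 it had 11.8 ± 2.8 FPKM in LR, against 500.5 ± 88.6 in LB, a log2 difference of -5.37 (limma adjusted p = 3.9e-14). DN84259_c1_g1 was called higher in LR at every stage but S2, with 19.1 ± 9.1 FPKM in LR at S5, against 0.540 ± 0.238 in LB (4.16, 5.7e-10). DN89104_c1_g3 changed its direction, being lower in LR at S2 (0.0533 ± 0.0924 FPKM, against 6.26 ± 2.89 in LB; -3.53, 9.3e-07) and higher at S5 (362.4 ± 110.6 FPKM, against 15.98 ± 7.81 in LB; 4.54, 1.3e-08).

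Some of the list shared the early course of EIX receptor, and in these the LB mean was also highest at S1. DN66835_c0_g1 had 39.8 ± 11.03 FPKM at S1 in LR, against 7.12 ± 5.62 in LB, and was called there (2.77, limma adjusted p = 0.0025). DN69092_c2_g1 had 2.84 ± 0.51 FPKM at S1 in LR, against 0.180 ± 0.149 in LB. DN69092_c2_g1 passed the filter on low values through LR alone, which fixed the direction of any difference, so none is given. At S2 the largest differences called higher in LR without overlap were those of DN65704_c6_g1 (2.56, limma adjusted p = 0.00011) and DN98858_c0_g1 (1.98, 0.0012). At S3 the largest was that of DN98858_c0_g1 (3.23, limma adjusted p = 3.7e-06). DN85763_c2_g1 was lower in LR at S3 (-3.19, 7.2e-06) and S4 (-2.44, 0.00019). Between S5 and S1 in LR, 3 of the 16 were called higher and 7 lower, against 2.97% and 5.39% of all unigenes, but the study had chosen the list for stage dependence in LR, so nothing is read from that count.

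**Figure D5:**
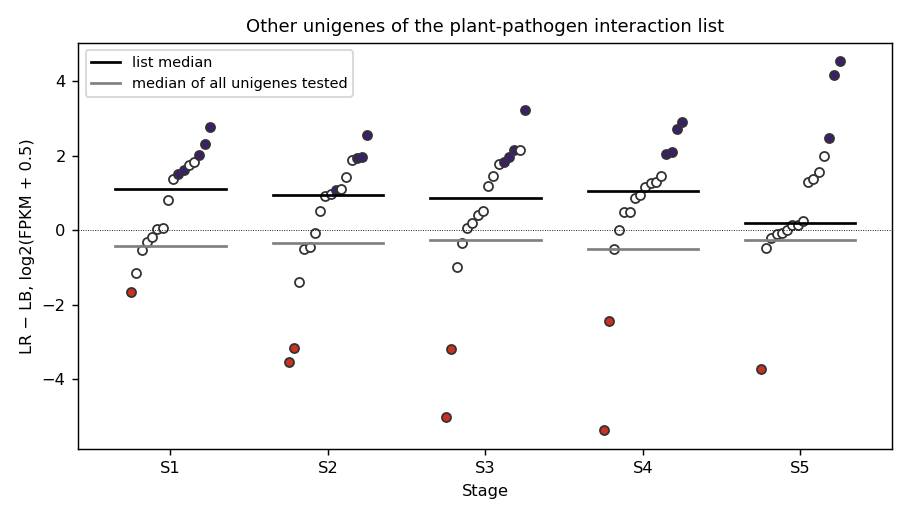
LR minus LB on the log2(FPKM + 0.5) scale (y axis) at each stage (x axis) for the 16 tested unigenes of the plant-pathogen interaction list other than EIX receptor. Dark filled points were called higher in LR, red points called lower and open points not called, black lines are the list medians and grey lines the medians of all unigenes tested. The list medians were 1.10 at S1 and 0.21 at S5, and the lowest point at S3, S4 and S5 is DN83221_c5_g1.

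Chitin is a polymer of an amino sugar, and 18 of the 49 unigenes of the study's LR list for amino sugar and nucleotide sugar metabolism could be read and were all tested. Chitinase was not among those read. LR was called higher for 3, 3, 3, 1 and 4 of them and lower for 0, 1, 4, 2 and 4 from S1 to S5, which is 16.7%, 22.2%, 38.9%, 16.7% and 44.4% of the list, against 30.9%, 30.7%, 32%, 33.2% and 33.1% of all unigenes. With only the 6 libraries of a stage 1 was called at each of S1, S2, S3 and S5, and with library weights 8 were called at S4, where 40.1% of all unigenes were. DN98167_c0_g1 was higher in LR at S1 to S3 (1.89, 3.10 and 1.53, limma adjusted p = 0.00016, 1.9e-07 and 0.0013), and like chitinase it was low in mature fruit, with 10.9 ± 1.7 FPKM at S1 and 0.2 ± 0.01 at S5 in LR, against 2.69 ± 1.09 and 0.240 ± 0.174 in LB. DN99628_c1_g1 was called higher in LR at every stage and had its largest difference at S5, with 569.2 ± 113.4 FPKM in LR, against 42.8 ± 21.5 in LB (3.81, 1.4e-09). The lowest called values were DN93064_c1_g3 at S2 (-1.90, limma adjusted p = 0.0049), DN95598_c4_g5 at S3 (-2.74, 0.00011), DN98076_c3_g1 at S4 (-2.37, 0.003) and DN96121_c0_g1 at S5 (-3.10, 1.2e-06).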

How the data were processed

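RNA of whole fruit was sequenced in 30 libraries, 3 for each of 10 groups of species and stage. The authors trimmed reads with Cutadapt, assembled them with Trinity, clustered transcripts with Corset and deposited FPKM per unigene to 2 decimals, computed from uniquely located reads, and the labels name Bowtie2. No further scaling of the deposited FPKM is stated; for its own count test between species the study used TMM. Every column was mapped to a sample (0 unmapped). Read counts were not used here, so the counting error of a value is unknown. The step between low FPKM values put the worth of 1 fragment at a 2.09-fold range among LR libraries and a 1.71-fold range among LB libraries.

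The deposited FPKM were put on a log2(FPKM + 0.5) scale, and 111217 unigenes that reached an FPKM of 1 in 3 or more libraries were kept. The fit used limma 3.58.1 in R 4.3.3 (trend and robust eBayes, 20 residual degrees of freedom), in place of the count test of the study, since FPKM are not counts. P-values were two-sided and Benjamini-Hochberg adjusted over all unigenes tested, with calls at an adjusted p under 0.01 and 2-fold. They rest on the spread between the 3 libraries of a group, taken as separate trees and pooled over all 10 groups of both species. For chitinase, EIX receptor and RPM1 the LB groups, at or next to 0, added next to no spread. The SE and p of their LR steps therefore do not measure the spread of LR alone. The code was checked on simulated data.

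Named are all 3 genes, the other unigenes of their components that passed the filter, per gene the 2 unigenes outside its component with the highest Pearson r over the 15 LR libraries, and, of those called without overlap, per stage and direction the largest differences, up to 2 of the plant-pathogen list and up to 1 of the amino sugar list. Unigenes under the filter and those of other components were added after their values were seen. The genes, lists and tests were chosen with earlier results of these data known.

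Alternatives were offsets of 0.1 and 1, a filter of FPKM above 0 in at least 3 libraries (184076 unigenes), median-of-ratios scaling over 37527 unigenes, library weights, the replicate number as a block, fits to the libraries compared, and leaving out LB4-3 with LB5-2 or each library in turn. Leaving out LR3-3 with LR4-1 was chosen after seeing the data. Figures were drawn with matplotlib 3.10.9.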

Additional observations from a re-analysis of the deposited data

Results flagged for a closer look

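In 2 unigenes LR minus LB at S3 to S5 differed from LR minus LB at S1 and S2 past the threshold of limma. The change was -3.63 for chitinase and -3.06 for EIX receptor on the log2(FPKM + 0.5) scale, where the LB libraries lay at or next to 0. The study had chosen both as early LR genes on these same libraries, and both passed the filter on low values through LR alone, so the test restates that choice and is no independent evidence. DN77127_c1_g2, the companion of chitinase with an LB level, had a change of 1.81 that was not called.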

How the results depend on the processing

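Of 461 values under alternatives other than leaving out 1 library, 411 kept their direction and their side of the threshold, or a count within 1.5 times. Changes of DN77127_c1_g1 and DN95128_c2_g2, which had every LB library at 0, are counted here but not listed, as their differences are not reported. Scaling moved the median of all unigenes by 0.277 to 0.521 in LR minus LB, by 0.302 in LR S3 minus S2 and by -0.38 in LR S5 minus S4. With it RPM1 turned to 0.18 for S3 minus S2 and fell below the limit at 0.95 for S5 minus S4, EIX receptor turned to -0.30 for S5 minus S4, chitinase was called at -3.23 for S5 minus S4, DN77127_c1_g2 was called between species at S5 (3.40), and the plant-pathogen list had 10 calls at S3 and 11 at S4.

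With an offset of 0.1 chitinase was called for S5 minus S4 (-3.63), and calls were lost for RPM1 S5 minus S1 (1.19) and for DN77127_c1_g2 between species at S1 (3.48) and in LR S5 minus S4 (-4.82). With the filter of FPKM above 0 those 3 were lost at 1.17, 3.46 and -4.53. Library weights gave calls of S3 minus S2 for chitinase (-2.67) and EIX receptor (-1.69) and of S5 minus S4 for chitinase (-1.99), turned RPM1 S4 minus S3 to 0.0301, RPM1 late minus early to -0.0150 and DN77127_c1_g2 LR S3 minus S2 to -0.0791, and gave 8 amino sugar calls at S4. Without LR3-3 and LR4-1, S3 minus S2 was called for chitinase (-2.84) and EIX receptor (-1.74), RPM1 turned to 0.12 for S4 minus S3 and -0.11 for late minus early, and DN77127_c1_g2 gave -0.14 for LR S3 minus S2, 3.17 and a call between species at S5, and -3.49 and no call for LR S5 minus S4. Without LB4-3 and LB5-2 the amino sugar list had 5 calls at S4.

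With only the 15 LR libraries, calls were lost for EIX receptor S2 minus S1 (-2.54), RPM1 S5 minus S4 (1.69) and S5 minus S1 (1.17), and DN77127_c1_g2 S5 minus S4 (-4.53) and S5 minus S1 (-5.39). With only the 6 libraries of a stage the plant-pathogen list had 2, 2 and 3 calls at S2, S3 and S4, the amino sugar list had 1 at S1, S2, S3 and S5, and DN77127_c1_g2 was not called at S4 (7.28). The cause of these changes was not tested.

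Leaving out each library in turn, 1513 of 1560 values kept direction and side. Of the reported values, the ranges that crossed were, for RPM1, -0.246 to 0.228 for S2 minus S1, -0.461 to 0.284 for S4 minus S3, 1.59 to 1.85 for S5 minus S4, 1.12 to 1.25 for S5 minus S1 and -0.0524 to 0.239 for late minus early. They were -1.85 to -0.91 for EIX receptor S3 minus S2 and -0.0612 to 0.409 for its S5 minus S4, and -3.08 to -1.50 for chitinase S5 minus S4, called without LR3-3. For DN77127_c1_g2 they were 3.17 to 3.68 between species at S1, 1.702 to 4.75 at S5, -0.138 to 0.851 for LR S3 minus S2 and -6.00 to -2.96 for LR S5 minus S4. Calls of the plant-pathogen list at S2 were 3 to 7, and of the amino sugar list 2 to 5 at S4 and 5 to 8 at S5.

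The replicate numbers were not taken as pairing, since nothing in the labels ties them to a tree and not every same-numbered pair correlated above 0.1. Deviations of same-numbered libraries of a species correlated at -0.102 to 0.229 (median 0.0388), with 12 of 60 pairs over 0.1, against 1 of 120 pairs of other numbers (median -0.0209), and 22 of 30 libraries correlated best with their own number, which is a hint of pairing from the data. With the replicate number as a block, DN77127_c1_g2 was called between species at S5 (3.17, limma adjusted p = 0.0079), and no call of chitinase, EIX receptor or RPM1 changed. That block was shared by both species, whereas same-numbered libraries of different species correlated at 0.04 at most (median -0.00676). The block fit therefore cannot decide on a pairing within a species.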
